A study of Mus musculus with 12 samples.

Results

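Zfp532, Zfp30 and Zscan25 are 3 mouse genes of zinc finger proteins at which H3K9me3, trimethylated lysine 9 of histone H3, differed between embryonic stem cells of 2 Tex19.1 genotypes. They were taken because each holds a region with an FDR below 0.05 in the authors' deposited table. The differences at these regions thus chose the genes and are given here as a description, with no test. All regions of the authors' deposited table that overlap chromosome 18 from 65.57 to 65.70 Mb (Zfp532), chromosome 7 from 29.78 to 29.81 Mb (Zfp30) or chromosome 5 from 145.27 to 145.30 Mb (Zscan25) in build mm10 were used. These were 6 of 68291 regions, 1 at Zfp532, 3 at Zfp30 and 2 at Zscan25. A further 148 regions within 500 kb of the windows served as the comparison.

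The study profiled H3K9me3 by chromatin immunoprecipitation and sequencing (ChIP-seq) in Tex19.1+/- (heterozygous) and Tex19.1-/- (knockout) cells on a 129/Ola background, derived from the E14Tg2a line and used at passages 12 to 20. Each genotype had 3 immunoprecipitated (IP) and 3 input libraries, 12 in all. Groups follow the titles, since the genotype field goes against the title in 6 libraries. The sources used here do not say how the Tex19.1 alleles were made, how many clones were used or whether the 3 libraries of a group were separate cultures. The processed data are 1 table of the comparison, with no values of single libraries, so neither the level in each sample nor any spread over replicates could be given. The table does not name its reference genotype, and a change is therefore given by its sign, not as higher or lower in the knockout. Tex19.1 itself had 0 regions within 5 kb, so nothing here checks the genotype at the targeted gene, and a table of a histone mark cannot check the cell type by expression.

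Zinc finger proteins of the C2H2 kind bind DNA through arrays of fingers. Many carry a KRAB domain, which recruits the corepressor TRIM28 and, through it, the methyltransferase SETDB1, which deposits H3K9me3. The genes themselves often lie in clusters that carry this mark, typically over the exons near the 3′ end that encode the fingers. Zfp30 is a KRAB zinc finger gene in such a cluster, Zscan25 belongs to the family with a SCAN domain, through which these proteins pair, and the human counterpart of Zfp532 works in a complex with ZMYND8.

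The promoters of Zfp30 and Zscan25 are shown because the mark in these genes lay at their other end. The sequences are the 250 bases before the annotated start, from RefSeq (GRCm38.p6, the assembly that mm10 names), on the + strand, with each CG dinucleotide in capitals.
Zfp30, chr7:29783718-29783967: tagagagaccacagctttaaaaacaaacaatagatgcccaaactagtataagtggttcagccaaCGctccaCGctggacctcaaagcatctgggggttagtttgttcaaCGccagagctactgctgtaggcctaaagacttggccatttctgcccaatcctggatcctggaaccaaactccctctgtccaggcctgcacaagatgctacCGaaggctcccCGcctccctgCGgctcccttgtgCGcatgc
Zscan25, chr5:145280201-145280450: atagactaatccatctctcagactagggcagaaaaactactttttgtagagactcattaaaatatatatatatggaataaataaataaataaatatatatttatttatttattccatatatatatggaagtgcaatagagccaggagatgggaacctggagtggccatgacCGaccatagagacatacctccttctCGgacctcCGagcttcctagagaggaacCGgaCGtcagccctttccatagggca
The Zfp30 promoter holds 7 CG dinucleotides and the Zscan25 promoter 5, or 6 for its second annotated start (145280221 to 145280470), against a median of 6 over 32851 promoters of the same length and 11 over 480 promoters of zinc finger genes. At least 1 CG was found in 92.1% of all promoters. No listed region overlapped either promoter, and the nearest lay 8067 and 7705 bp away (7685 bp for the second Zscan25 start). Over all promoters 2.63% overlapped a region, and over those of zinc finger genes 1.67% did.

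The region in Zfp532 (chromosome 18, 65620021 to 65626877) was the only 1 in the gene. It was 6856 bp wide and began 39791 bp inside the gene body, counted from its lower coordinate. It covers 6.28% of a gene of 109214 bp (65580230 to 65689443). Its average signal was 113 CPM (read counts scaled to library size, not to width) in the authors' deposited table, above 99.0% of all regions. Per kb of width the region had 16.5 CPM, above 93.1% of all regions. It stood alone. The neighbouring regions were 50554 and 92213 bp away, where the median gap in the table is 12098 bp, and the strongest of the 25 regions in the flanks had 25.9 CPM. The region thus held 32.3% of the summed signal of the window and its flanks.

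The region in Zfp30 (chromosome 7, 29792034 to 29793960) was narrower and had less signal, with 1926 bp and 23.0 CPM in the authors' deposited table, above 83.0% of all regions. Per kb of width it had 11.9 CPM, above 59.8% of all regions. It lay near the 3′ end of the gene (29783968 to 29794703, + strand), beginning 8066 bp after the start and ending 743 bp before the gene's end. The other regions of the window lay 10228 and 12323 bp beyond the gene and had 4.05 and 5.73 CPM. Unlike the Zfp532 region, this region ranked only 21 by signal among the 45 of its window and flanks, and held 1.78% of their summed signal.

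The region at Zscan25 (chromosome 5, 145288155 to 145294985) was 6830 bp wide, with 73.4 CPM in the authors' deposited table, above 97.4% of all regions. Per kb of width it had only 10.8 CPM, above 39.1% of all regions and less than the 11.9 of the Zfp30 region. It covered the last 4085 bp of the gene (145280451 to 145292240, + strand) and ran 2745 bp past its end. The second region of the window (145297332 to 145301344) began 2347 bp further on, outside the gene, with 61.8 CPM. Here the signal did not stand alone either, since the region ranked 10 of 83 and held 2.69% of the summed signal. The table of genes gives bodies without exons, so the position of these regions relative to exons was not analysed here.

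**Figure D1:**
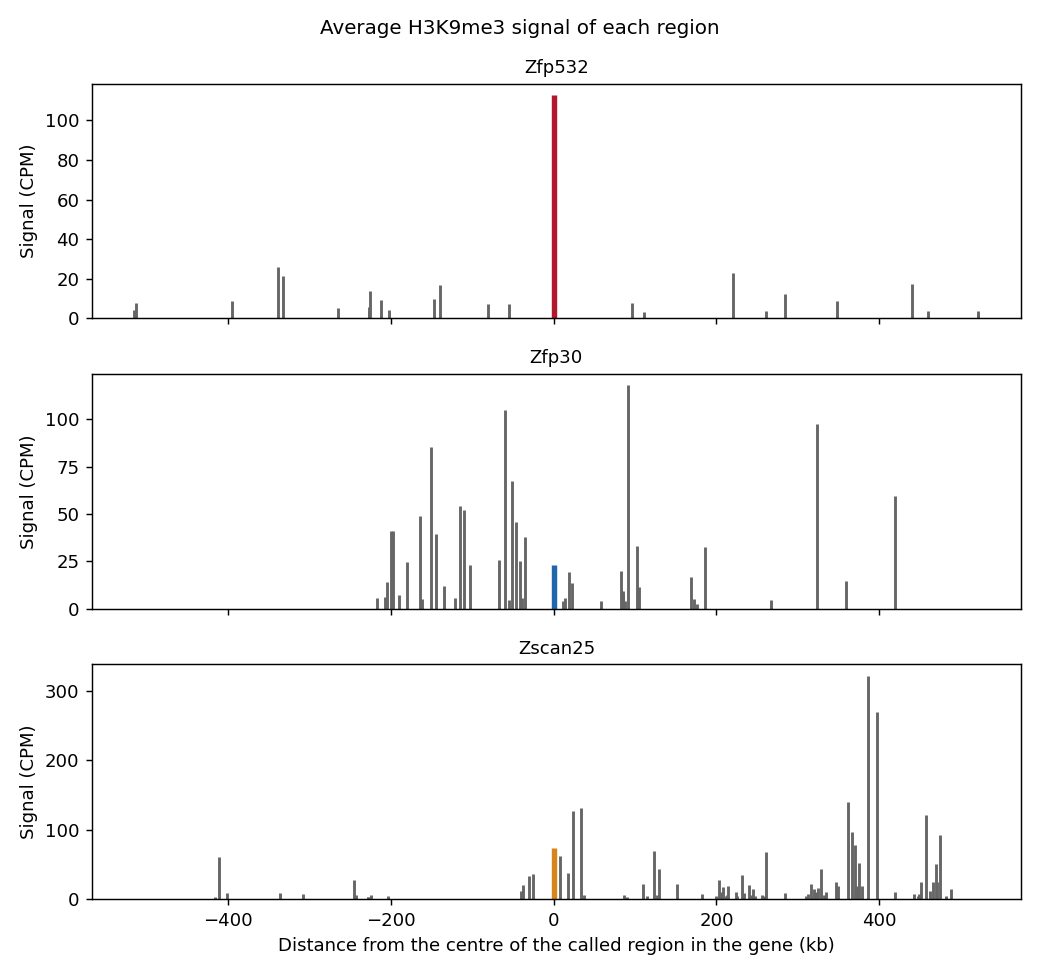
Average H3K9me3 signal (CPM, vertical axis from 0, scaled per panel) of each region against its distance in kb from the centre of the called region in Zfp532, Zfp30 and Zscan25. The coloured line is the called region: at Zfp532 it reaches 113 CPM among flanking regions of at most 25.9 CPM, while at Zfp30 (23.0 CPM) and Zscan25 (73.4 CPM) it stands among stronger ones.

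The signs of the differences were not the same at the 3 genes. For the Zfp532 region the authors' deposited table gives a log2 fold change of 0.66, a 1.58-fold difference (derived standard error 0.09, FDR 1.19e-09). For the Zscan25 region the authors' deposited table gives 0.51, or 1.42-fold (derived standard error 0.11, FDR 0.00415). The Zfp30 region went the other way, with -1.08 in the authors' deposited table, or 2.11-fold (derived standard error 0.21, FDR 0.000278). The FDR is the authors' p-value adjusted over all regions. The standard error was obtained from the change and its p-value by a normal approximation. It carries the assumptions of the authors' test and is not a spread between libraries. The 95% intervals made from it were 0.48 to 0.83 for Zfp532, 0.29 to 0.73 for Zscan25 and -1.48 to -0.67 for Zfp30, so the positive changes overlapped in size.

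The remaining 3 regions of the windows were not called. At Zfp30 the regions beyond the gene had 0.58 and 0.03 in the authors' deposited table, with standard errors of 0.54 and 0.43 typical of such weak signal. Their intervals reached -0.49 and -0.81, so both left out the value of -1.08 inside the gene. The second still overlapped the interval of the called region itself, -1.48 to -0.67. The second Zscan25 region was well measured, with -0.06 in the authors' deposited table (standard error 0.13 from regions of like signal), and its interval of -0.32 to 0.19 left out the 0.51 of its neighbour. Thus 3 of 6 regions were called at an FDR below 0.05, 2 positive and 1 negative, where 0.281% of all regions were called, 0.192% positive and 0.0893% negative. At an FDR below 0.01 the same 3 of 6 regions passed, against 0.148% of all regions, and under Holm adjustment 2 of 6, against 0.0703%, since Zscan25 did not (adjusted p = 0.307). These counts were fixed by the choice of the genes and nothing is read from them. The values that the intervals above were set against were chosen in the same way.

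Signal limits which changes could be called. Within 0.25 log2 CPM of the Zfp30 region the smallest change called in the authors' deposited table was 0.71, against 0.40 around the signal of the Zscan25 region and 0.33 around that of the Zfp532 region. Of the 571 regions of like signal to Zfp532, 0 had a larger absolute change, and 22 were called (3.85%). Zfp30 was exceeded by 2 of 5258 regions of like signal, and 13 of the 5258 were called (0.247%). Zscan25 was exceeded by 12 of 1282, and 33 of the 1282 were called (2.57%). By p-value the regions at Zfp532, Zfp30 and Zscan25 ranked 8, 41 and 74 in the table. Each was chosen because it was called, so these ranks follow from the choice and nothing is read from them.

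**Figure D2:**
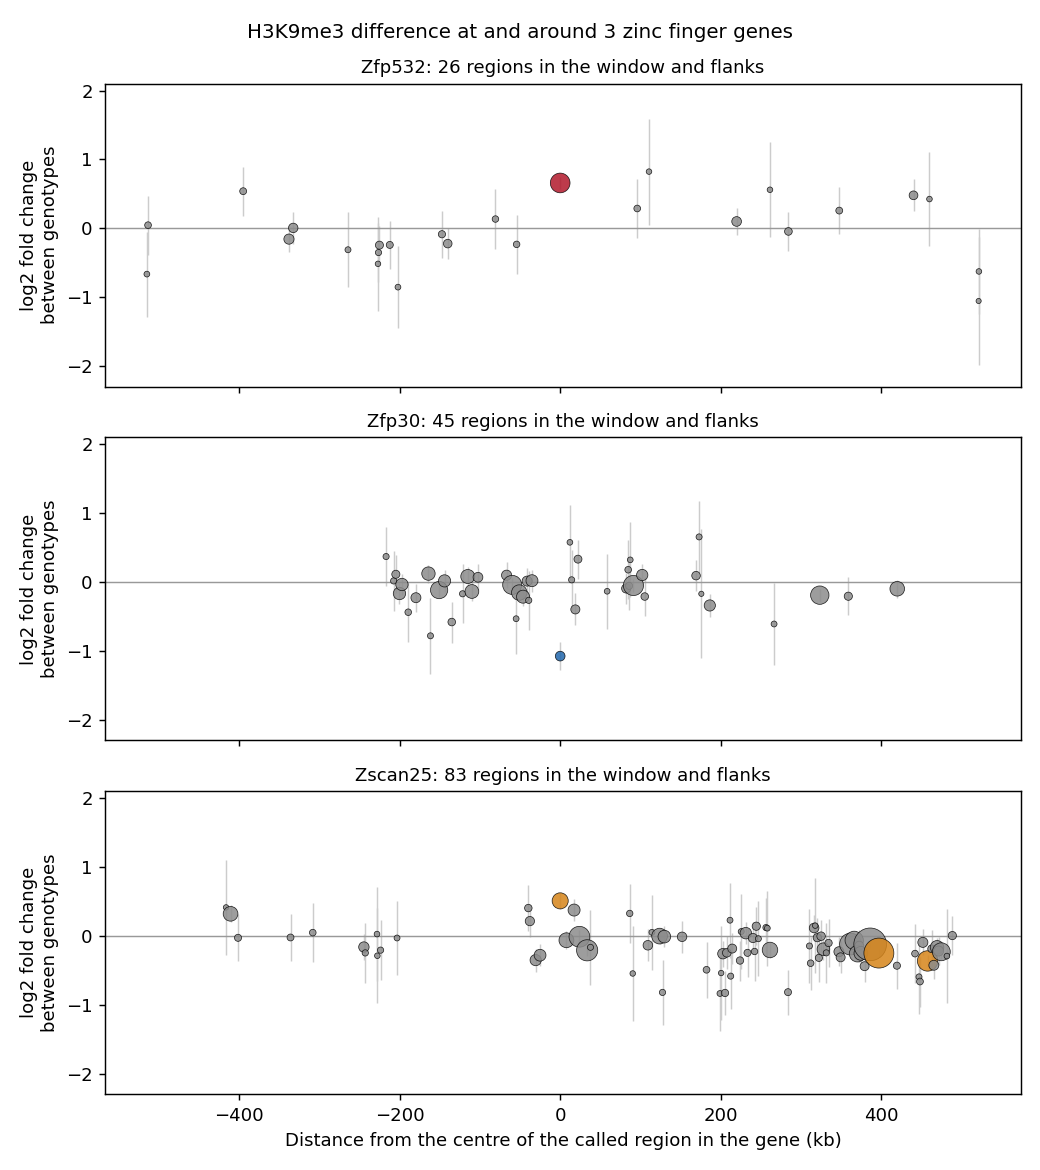
Log2 fold change between the genotypes (vertical axis, bars are 1 derived standard error) of each region against its distance in kb from the centre of the called region, with the area of a point growing with CPM and coloured points called at an FDR below 0.05. The regions in Zfp532 (0.66), Zfp30 (-1.08) and Zscan25 (0.51), chosen because they were called, lie apart from most neighbours. On the upper side of Zscan25, 2 negative regions are called.

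Around Zfp532 the flanks were sparse and weak. The 25 regions covered 20.4 kb and had a median of 7.81 CPM. None was called in the authors' deposited table, where 0.281% of all regions were. An unadjusted p below 0.05 was found for 1, where 4.74% of all regions had one. That region, in Ccbe1, a gene of lymphatic vessel growth (66063018 to 66064554), stood at 0.48 in the authors' deposited table (standard error 0.23, FDR 0.993). The nearest regions had -0.23 (533 bp outside the window) and 0.29 (in Oacyl, 19090 bp outside it), each with a standard error of 0.43. The median was -0.23 over the 15 regions on the lower side, 11 of them negative, and 0.27 over the 10 on the upper side, 7 of them positive. The difference between the sides was not tested. On the lower side the smallest p belonged to a weak region at 0.54 (65227910 to 65228822, 8.64 CPM, standard error 0.36), and the most negative region above 16 CPM (65482718 to 65483907) had -0.22 in the authors' deposited table (standard error 0.23). On the upper side the strongest region, at the pseudogene Gm52375 (65842518 to 65844142, 22.9 CPM), had 0.10 in the authors' deposited table (standard error 0.19). The strongest regions of the lower side, in Alpk2, a gene of a protein kinase, had -0.16 and 0.004 in the authors' deposited table (standard errors 0.19 and 0.23). The interval of 12 of the 25 flanking regions included 0.66, and of the 5 with at least 16 CPM 1 did, so that a value as large as that in Zfp532 was not left out at those 12 regions. The 0.66 was chosen as a called value, so nothing more is read from these counts.

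The flanks of Zfp30 were dense. Their 42 regions covered 86.5 kb and had a median of -0.10, and 23 had at least 16 CPM. In the authors' deposited table these 23 ranged from -0.40 to 0.12, with a median of -0.05, against a median of -0.05 over all regions of that strength. None of the 42 was called, where 0.281% of all regions were, and 2 had an unadjusted p below 0.05. None of the intervals of the 23 stronger regions included -1.08, while 8 of the 42 intervals did. That value was chosen as a called one, and its own interval was left out of account, so nothing is read from these counts. The strongest regions were flat, with -0.05 at 118 CPM (29881019 to 29887544) and -0.04 at 105 CPM (29730017 to 29736355) in the authors' deposited table, each with a standard error of 0.09. Both lie outside any gene body. The nearest region on the lower side (29756573 to 29759098) had 0.02 in the authors' deposited table (standard error 0.16). The smallest p of each side belonged to regions at -0.58 (29657347 to 29658365, 11.8 CPM, standard error 0.30) and -0.34 (29978152 to 29980768, in the noncoding RNA gene Gm31735, standard error 0.17). On the lower side the values above 16 CPM ran from -0.23 (29612363 to 29614046) to 0.12 (29627494 to 29630153) in the authors' deposited table.

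Zfp30 lies in a row of zinc finger genes, and its 14 neighbours within 500 kb were compared gene by gene. Of these, 5 held a region in their body, 7 regions in all. Of the 7, 0 were called, where 0.281% of all regions were, so they are too few to read anything from that count. Zfp790, the next gene, had -0.40 near its lower end and 0.33 further in, with standard errors of 0.23 and 0.28 in the authors' deposited table, at 19.4 and 13.5 CPM. The first of these regions (29811153 to 29812634) lay 1153 bp outside the window and was the most negative of the stronger regions in the flanks. Zfp420 had -0.09 at 19.8 CPM, the signal closest to that of Zfp30, with a standard error of 0.23. Zfp27 had 0.10 at 33.3 CPM and -0.21 at 11.6 CPM in the authors' deposited table. Zfp940 and Zfp82 had weak regions of 4.09 and 4.73 CPM, at -0.13 and -0.61. The other 9, Zfp84, Zfp383, Zfp74, Zfp568, Zfp14, Zfp566, Zfp260, Zfp382 and Zfp146, had no listed region in their body. These genes share related sequences, and how reads that match several places were treated is not stated, so values within the cluster may share reads.

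Around Zscan25 values of either sign lay side by side, and several had derived intervals that included 0. The 4 regions next below the gene had 0.40, 0.21, -0.35 and -0.28 in the authors' deposited table, in order along the chromosome, with standard errors of 0.34, 0.23, 0.17 and 0.16. The called region followed at 0.51. The 4 regions next above it had -0.06, 0.38, -0.01 and -0.21 in the authors' deposited table, with standard errors of 0.13, 0.16, 0.09 and 0.08. The derived intervals of the regions at 0.40, 0.21, -0.28, -0.06 and -0.01 included 0. The region at 0.38 (145307310 to 145310452, 38.3 CPM, standard error 0.16) was not called, with 0.0166 as unadjusted p and 0.769 as FDR in the authors' deposited table. The last 2 regions of this stretch were strong, at 126 and 131 CPM. Only the region in Zscan25 was called here. Of the 37 flanking regions of at least 16 CPM, 34 had intervals that left out its value of 0.51, while over all 81 flanking regions 33 intervals included it. The 0.51 was chosen as a called value, without its own interval being taken into account, so nothing is read from these counts. At the far end of the lower side, a region in Smurf1, a ubiquitin ligase gene (144878903 to 144882616), was the strongest on that side at 60.4 CPM and also its most positive above 16 CPM. It stood at 0.32 in the authors' deposited table, with a standard error of 0.12, an unadjusted p of 0.0084 and 0.589 as FDR.

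Further up, through the Cyp3a genes, which encode cytochrome P450 enzymes of drug and steroid metabolism, most values were negative. On the upper side 54 of 66 regions lay below 0, and their median was -0.20, against 9 of 15 and -0.03 on the lower side. The share below 0 was 50.8% over all regions and 54.9% on chromosome 5. At an FDR below 0.05 in the authors' deposited table, 2 of the 81 flanking regions were called, both negative. Over all regions 0.281% were called, 0.0893% with a negative change. Strong regions were called more often, 2.57% at the signal of Zscan25 and 3.85% at that of Zfp532. Both called flanking regions had more signal than these, so the share over all regions is a low measure for them. An unadjusted p below 0.05 was found for 12 of the 81 (14.8%), against 4.74% of all regions. A region between Cyp3a63-ps and Cyp3a41a (145685240 to 145692242, 269 CPM) had -0.25 in the authors' deposited table (standard error 0.06, FDR 0.00863). A region between Cyp3a41a and Cyp3a44 (145746189 to 145752768, 122 CPM) was at -0.36 in the authors' deposited table (standard error 0.09, FDR 0.0133). The strongest flanking region (145673430 to 145682347, 322 CPM) had -0.12 (FDR 0.808) there, and the most negative above 16 CPM (145670527 to 145671400, 18.8 CPM) had -0.44 (standard error 0.23, FDR 1). Zscan25 was the most positive of the 83 regions of its window and flanks. Its difference from the flank median of -0.18 was 0.69. It was chosen because it was called, so nothing is read from its rank or from this difference. The Cyp3a genes are near copies of each other, so these regions too may share reads.

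The zinc finger genes next to Zscan25 offered no comparison of their own. Zkscan14, Zkscan5 and Zfp655 on its lower side had no listed region in their body. Within 500 kb of Zfp532 there was no other gene with a zinc finger symbol.

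Over the whole table, 471 protein-coding genes were taken as zinc finger genes by their symbol, whatever kind of finger they encode, and 564 regions lay in the body of 214 of them or within 5 kb. Of these regions 6 were called (1.06%), 4 positive and 2 negative, and the median was -0.02, against -0.01 over all regions. Since the 3 genes were picked from these calls, the count supports nothing. Beside the 3 members, the called regions lay in 2 genes. Zfp462, whose protein restrains lineage genes in pluripotent cells, had 2 positive regions on chromosome 4. The authors' deposited table gives 0.80 (FDR 0.026) for 54980386 to 54983176 and 0.44 (FDR 0.0369) for 55001902 to 55006741. For Zfp787 (chromosome 7, 6130865 to 6135091) the authors' deposited table gives -0.82 (FDR 8.94e-09).

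Most zinc finger genes with strong signal were near 0. Taking the strongest region in each gene's body, 26 regions had at least 64 CPM. Leaving out Zfp532 and Zscan25, the other 24 ranged from -0.82 (Zfp787) to 0.44 (Zfp462) in the authors' deposited table, with a median of 0.002, and 22 of them lay within 0.3 of 0. Of the 56 such strongest regions with 16 to 64 CPM, the 55 other than Zfp30 ranged from -0.61 (Zfp109) to 0.62 (Zfp735) in the authors' deposited table, with a median of -0.05 and 0 calls. Over all regions 0.281% were called. The called Zfp462 region at 0.80 (54980386 to 54983176, 23.8 CPM) is not among these 56, since it was not the strongest in its gene. By signal Zfp532 ranked 13, Zscan25 22 and Zfp30 66 of 150 genes. Genes with stronger or similar signal included Zscan20, of the same family as Zscan25, with 0.05 at 99.1 CPM and a standard error of 0.09.

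**Figure D3:**
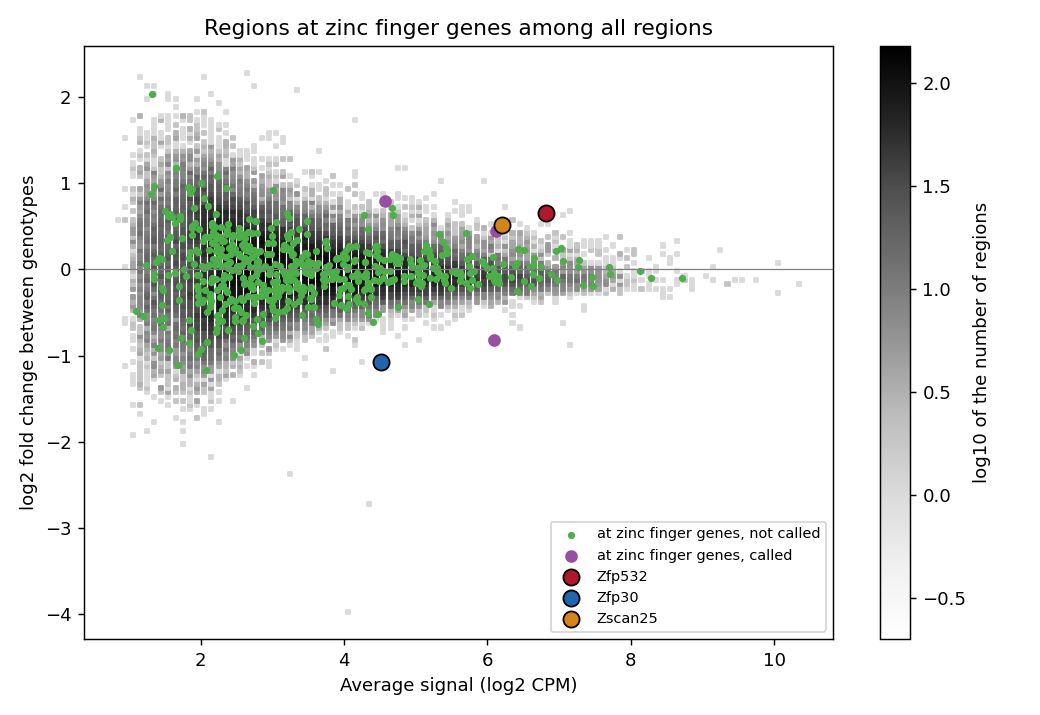
Log2 fold change between the genotypes against average signal (log2 CPM) for all 68291 regions (grey, darker where more regions lie), the 564 regions at zinc finger genes (green, called ones purple) and the called regions in Zfp532, Zfp30 and Zscan25. The spread narrows with signal, and the 3 members, chosen because they were called, lie at its edge.

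The position of the mark within the genes was not used to choose them. In Zfp30 and Zscan25 the part of the region inside the gene was centred at 84.1% and 82.7% of the gene's length from its start. Among zinc finger genes of 5 to 50 kb with a region and a known strand, 64 of 102 (62.7%) had their strongest region past the middle, with a median position of 59.1%. In other protein-coding genes of this length it was 878 of 1642 (53.5%), with a median of 53.3%. In the last 25% of the gene's length lay 32.4% and 29.1%. No test of this difference was made, and the part of the gene in which both members lay was common in either set. The region of Zfp532 was placed only by coordinates.

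**Figure D4:**
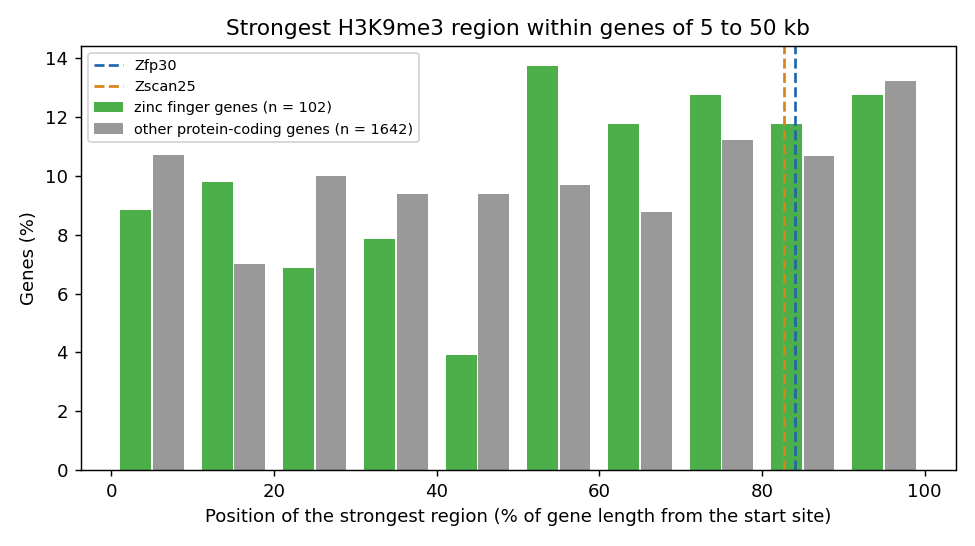
Share of genes (%) by the position of their strongest H3K9me3 region, in steps of 10% of gene length from the start site, for 102 zinc finger genes (green) and 1642 other protein-coding genes (grey) of 5 to 50 kb. Dashed lines mark Zfp30 (84.1%) and Zscan25 (82.7%), both close to the 3′ end.

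Other genes of the 3 lists used here, partners of the Zfp532 protein, the SCAN family and factors of H3K9 methylation, were read for their own regions. Of the partners of the Zfp532 protein, Zfp592, Zfp687 and Zmynd8, only Zfp592 had a region, at -0.07 with a standard error of 0.13 (49.7 CPM) in the authors' deposited table. Among 27 genes named Zscan or Zkscan, 9 had 19 regions, with a median of 0.08, and the 1 called region was that of Zscan25 itself. Of 19 genes of writers, readers and erasers of H3K9 methylation, 5 had 10 regions. None of these was called in the authors' deposited table, where 0.281% of all regions were. An unadjusted p below 0.05 was found for 1, a weak region at Pphln1, a subunit of the HUSH silencing complex, with 1.48 at 5.08 CPM (standard error 0.53, FDR 0.481). At Atf7ip, the cofactor of SETDB1, the regions had 0.25 and 0.07 (standard errors 0.15 and 0.13) in the authors' deposited table.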

How the data were processed

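Of tools, edgeR (no version), bedtools 2.25.0, HOMER 4.8 and Bowtie2 2.2.6 are listed in the submitters' processing notes, and mm10 as build, without their roles. Per the file headers, the authors deposited for each region an FDR, a p-value, an average log2 CPM and a log2 fold change, in 1 table with 0 columns of single libraries. The sources used here do not say which libraries entered the comparison, whether input was used or how regions were defined. Library totals were not analysed here, so depth is described by CPM alone. The coordinates listed under other units are those the authors deposited.

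Regions were called at the deposited FDR below 0.05. Derived standard errors used the p-value where its normal deviate was at least 1, and otherwise the median of regions in the same bin of 0.5 log2 CPM. The formula and the p-value adjustments were tested on simulated data with known errors. Genes came from the RefSeq table of GRCm38.p6, and lists took regions in the gene body or within 5 kb. Named regions were all those in the windows and, per flank, the called, the nearest, the strongest, that of smallest p and the extremes of at least 16 CPM. Named zinc finger genes were those of the flanks and those called. Regions named beyond this rule were picked with their values in view. The members and lists were chosen with earlier results of these data known. Python 3.11.15, pandas 2.3.3 and scipy 1.17.1 were used. No sequence of the regions was read, since no genome was used here.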

Additional observations from a re-analysis of the deposited data

How the results depend on the processing

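The calls at Zfp532 and Zfp30 held under all 4 alternatives tried: an FDR below 0.01, Holm adjustment, and Benjamini-Hochberg adjustment without regions under 16 CPM or without chromosomes 11 and 16 (adjusted p from 3.13e-10 to 9.49e-09 and from 7.7e-05 to 0.0117). The Zscan25 call held under 3, and under Holm adjustment 0 regions were called there (adjusted p = 0.307, range over the alternatives 0.00116 to 0.307). The 2 called regions in the flanks became 1 with the FDR limit at 0.01 and 0 with Holm adjustment. In the whole table the 192 calls became 101 at an FDR below 0.01, 48 under Holm adjustment, 95 without chromosomes 11 and 16 and 296 without regions under 16 CPM, since fewer regions were tested there. Subtracting the median of the chromosome, of like signal or of the flanks left the sign of the 3 called regions as it was, with Zfp532 at 0.69 to 0.75, Zfp30 at -1.04 to -0.98 and Zscan25 at 0.54 to 0.69. The flank median of Zfp532, -0.09, ran from -0.22 (250 kb) to 0.01 (1 Mb) and so has no settled sign. That of Zfp30, -0.10, ran from -0.06 to -0.04, so each alternative brought it closer to 0 by over 1.5 times, and that of Zscan25, -0.18, from -0.17 to -0.14 under the same 4 alternatives. The count of zinc finger regions called was 6 for gene bodies alone and 7 within 10 kb. No paired analysis was possible because the table holds no values of single libraries, and for the same reason no library could be left out.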
